A study of Mus musculus with 8 samples.

Results

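The genes described here are the ligands and receptors of the vascular endothelial growth factor (VEGF) pathway in lung endothelial cells. They were chosen by name: the ligands Vegfa, Vegfb and Pgf, the receptor tyrosine kinases Kdr and Flt1, the co-receptors Nrp1 and Nrp2, and Esm1, a secreted proteoglycan of activated endothelium. These are 8 of the 34899 genes in the deposited table. All 8 were among the 17067 genes tested, a gene being kept where 4 or more libraries reached 10 normalised counts. The comparison was between 4 HF and 4 LF libraries of endothelial cells that had been sorted from mouse lungs for CD31, an endothelial adhesion molecule, and against CD45, a leukocyte surface marker. Both groups were female C57BL6 mice, and no transgene, agent or age is named for either. HF and LF are given in the labels as bare names, and the series title concerns obesity, neutrophil oxidative stress, vascular inflammation and the transmigration of metastatic cells. The question addressed is how these genes were expressed in HF against LF lung endothelium.

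VEGF-A binds both receptor tyrosine kinases. Kdr carries most of its growth, survival and permeability signal in endothelium, while Flt1 binds VEGF-A, VEGF-B and placental growth factor tightly, has a weaker kinase, and also exists as a soluble form that captures ligand. Neuropilins hold VEGF at the receptor and also receive class 3 semaphorins, and Esm1 is transcribed in response to VEGF-A and is known as a marker of sprouting tip cells. In the adult mouse lung, alveolar type 1 epithelium is a main source of VEGF-A, and the aerocytes, the capillary cells that lie against it, are known for high Kdr.

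Libraries held 10631506 (LF 1) to 20781564 (HF 4) reads assigned to genes. Values are the authors' normalised counts, a fold divides HF by LF and was fitted, with its 95% interval, on log2(normalised count + 1), and adjusted p-values are from limma over all 17067 genes. The LF libraries fell into pairs on the first principal component of all genes tested (36.1% of the variance), where the HF libraries lay between -6.8 and 39.6, LF 3 and LF 4 at 13.5 and 25.9, and LF 1 and LF 2 at -56.4 and -50.9. Genes of the annotation class TEC, transcribed loci awaiting experimental evidence, took 0.288% to 0.443% of reads in HF, against 0.390% and 0.286% in LF 3 and LF 4 and the largest shares, 0.725% and 0.635%, in LF 1 and LF 2. Results are therefore given with all 8 libraries and without each LF pair. Pecam1, which encodes CD31, was at 28252 ± 1063 in HF and 25381 ± 6906 in LF (SD, n = 4 each), and Cdh5, the cadherin of endothelial junctions, at 13037 ± 196.5 in HF and 11155 ± 1655 in LF. Ptprc, which encodes CD45, was at 166 ± 72.8 in HF and 199 ± 59.0 in LF.

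With all 8 libraries, none of the 8 genes differed between HF and LF at an adjusted p under 0.05, and the HF and LF values of each of the 8 overlapped. Limma called 0 of the 17067 genes tested (0%), with 1882 at an unadjusted p under 0.05. Counts by edgeR were 0 genes and by DESeq2 313 genes, none of them one of these 8. Groups did not overlap for 5.43% of all genes tested. At an unadjusted p under 0.05, 1 of the 8 was higher in HF (Vegfa), where 6.36% of all genes were, and 1 was lower (Pgf), where 4.67% were. The log2 mean was higher in HF for 6 of the 8, or 5 of 8 with TMM scaling, quantile normalisation, edgeR or DESeq2, under which Kdr turned lower. In the authors' deposited table, 0 of the 8 passed an adjusted p of 0.05, as 311 of 15276 genes did, and the 2 at an unadjusted p under 0.05 were again Vegfa and Pgf.

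**Figure D1:**
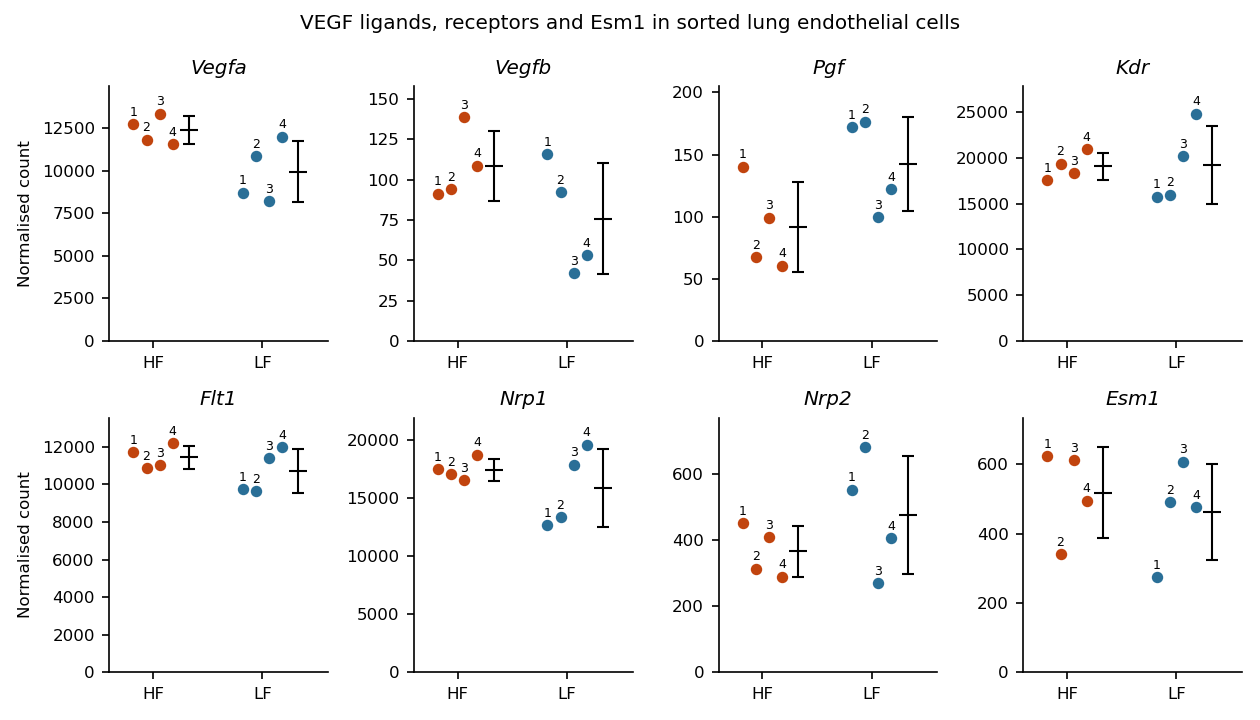
Normalised counts (vertical axes, each from 0) of the 8 genes in the HF (orange) and LF (blue) libraries, 1 point a library with its replicate number, and bars for mean ± SD (n = 4). HF and LF points overlap in every panel, and Kdr and Nrp1 are lower in LF 1 and LF 2 than in any HF library.

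Of the ligands, Vegfa is the principal growth factor of blood vessels. Its normalised counts were 12741, 11845, 13369 and 11577 in HF 1 to HF 4, against 8726, 10877, 8219 and 12011 in LF 1 to LF 4. All HF values lay above those of 3 LF libraries, and LF 4 lay among the HF values. Vegfa averaged 12383 ± 824.5 in HF and 9958 ± 1789 in LF (SD, n = 4 each), a fold of 1.26 (1.002 to 1.58) with an unadjusted p of 0.0480 and an adjusted p of 0.447 by limma. The authors' deposited table gives it a log2 fold change of 0.31 with an adjusted p of 0.334.

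Vegfb binds Flt1 and Nrp1 but not Kdr, and is known for effects on fatty acid uptake and vessel survival. It was at 91.5, 94.2, 138.9 and 108.7 normalised counts in HF 1 to HF 4, against 115.9, 92.4, 42.2 and 53.2 in LF 1 to LF 4. LF 3 and LF 4 were below all HF libraries, while LF 1 and LF 2 lay within the HF range. The fold was 1.52 (0.955 to 2.41), and limma's adjusted p was 0.497.

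Pgf encodes placental growth factor, which binds Flt1 and not Kdr. Its normalised counts were 140.2, 67.5, 99.1 and 60.7 in HF 1 to HF 4, against 172, 176.4, 99.4 and 122.1 in LF 1 to LF 4. The lowest LF library was just above HF 3, and HF 1 was the only HF library above any LF library. Pgf averaged 91.9 ± 36.3 in HF and 142.5 ± 37.9 in LF (SD, n = 4 each), a fold of 0.630 (0.409 to 0.970) with an unadjusted p of 0.0379 and an adjusted p of 0.419 by limma. Its log2 fold change in the authors' deposited table is -0.64 with an adjusted p of 0.328. Counts sum all isoforms of a gene, so the splice forms of Vegfa and Pgf that differ in heparin binding are not separated.

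Of the receptors, Kdr encodes the main signalling receptor for VEGF-A. It had 17588, 19379, 18323 and 20942 normalised counts in HF 1 to HF 4, against 15774, 15995, 20165 and 24821 in LF 1 to LF 4. LF 1 and LF 2 were below all HF libraries, LF 3 lay within the HF range and LF 4 was above it. The fold was 1.01 (0.780 to 1.31), and limma's adjusted p was 0.982. Its log2 fold change of 0.01 turned negative when HF 4, LF 1 or LF 2 alone was left out (-0.07 to -0.03). In bulk samples, fewer cells of a type and less RNA per cell cannot be told apart.

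Flt1, the high-affinity receptor and decoy, was at 11707, 10876, 11019 and 12194 normalised counts in HF 1 to HF 4, against 9762, 9644, 11411 and 11994 in LF 1 to LF 4. LF 1 and LF 2 were below all HF libraries and the other LF libraries lay within the HF range. The fold was 1.07 (0.882 to 1.31), and limma's adjusted p was 0.770. The membrane and soluble forms of Flt1 share exons and are summed in these counts.

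Nrp1, the co-receptor that joins Kdr, had 17513, 17101, 16539 and 18769 normalised counts in HF 1 to HF 4, against 12673, 13369, 17894 and 19610 in LF 1 to LF 4. LF 1 and LF 2 were again the lowest of the 8 libraries, and LF 4 the highest. Its fold was 1.12 (0.870 to 1.44), and limma's adjusted p was 0.721. The microRNA gene Mir1903 shares 80 bases of exon with Nrp1 on the same strand.

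Nrp2, known for lymphatic and venous endothelium and as a partner of the VEGF-C receptor, was low in comparison. It had 453.2, 314.6, 409 and 289.9 normalised counts in HF 1 to HF 4, against 553.9, 681.7, 270 and 407.1 in LF 1 to LF 4. LF 1 and LF 2 were the highest libraries and LF 3 the lowest, whereas for Nrp1 the libraries LF 1 and LF 2 were the lowest. The fold was 0.799 (0.544 to 1.17), and limma's adjusted p was 0.648.

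Esm1 varied more between libraries than Kdr, Flt1 and Nrp1. Its normalised counts were 622.9, 340.4, 612.1 and 495.5 in HF 1 to HF 4, against 274.5, 491.4, 607.2 and 476.1 in LF 1 to LF 4. The lowest library was LF 1 and the next HF 2, and the groups overlapped over most of their range. Its fold was 1.13 (0.781 to 1.64), and limma's adjusted p was 0.785, and without LF 1 alone its log2 fold change was -0.05.

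Values varied less among HF than among LF libraries for 7 of the 8 genes. For Kdr the SD of log2 values was 0.11 in HF and 0.31 in LF, close to the medians of 0.11 in HF and 0.32 in LF over 179 genes within a factor of 2 of its level. Pgf was the exception, at 0.55 in HF and 0.40 in LF, where 3088 genes of like level had medians of 0.27 in HF and 0.34 in LF. Over all genes tested the median SD was 0.20 in HF and 0.33 in LF.

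Kdr, Flt1 and Nrp1 had the most alike profiles among the 8 genes over the 8 libraries. After each gene was centred on its own log2 mean, the root mean square difference was 0.10 between Kdr and Nrp1, 0.10 between Flt1 and Nrp1 and 0.13 between Kdr and Flt1. Pgf and Nrp2 differed by 0.26, the least among pairs of Vegfb, Pgf, Nrp2 and Esm1, and Vegfb and Pgf were the least alike at 0.76. Centred values of all 3 receptors were negative in LF 1 and LF 2 (-0.38 to -0.18) and positive in LF 3 and LF 4 (0.05 to 0.39). These genes share libraries and depth, so the likeness is a description. The promoters of these 3 receptors are shown because their profiles were the most alike. They are the 250 bases before the start that RefSeq (GRCm38.p6) gives for each gene, 5′ to 3′ on the gene's strand, and capitals mark GGAA, the core letters that ETS factors bind, or TTCC where it lies on the other strand.
Kdr: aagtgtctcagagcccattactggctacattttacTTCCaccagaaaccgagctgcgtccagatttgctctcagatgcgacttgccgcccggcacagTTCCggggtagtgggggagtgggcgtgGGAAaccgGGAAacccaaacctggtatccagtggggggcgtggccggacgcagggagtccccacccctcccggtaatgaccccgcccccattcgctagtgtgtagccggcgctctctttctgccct
Flt1: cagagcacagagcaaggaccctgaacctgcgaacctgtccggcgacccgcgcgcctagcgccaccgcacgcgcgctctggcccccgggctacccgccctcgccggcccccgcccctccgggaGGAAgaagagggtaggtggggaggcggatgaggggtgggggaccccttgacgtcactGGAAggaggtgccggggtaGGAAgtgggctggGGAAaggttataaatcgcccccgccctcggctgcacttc
Nrp1: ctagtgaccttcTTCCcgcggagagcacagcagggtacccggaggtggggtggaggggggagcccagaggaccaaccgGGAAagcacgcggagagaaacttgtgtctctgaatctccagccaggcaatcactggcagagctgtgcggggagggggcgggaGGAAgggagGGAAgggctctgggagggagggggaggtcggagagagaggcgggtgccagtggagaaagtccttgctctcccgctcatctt
They lie at chr5:75978456-75978705 (minus strand) for Kdr, chr5:147726012-147726261 (minus strand) for Flt1 and chr8:128358823-128359072 (plus strand) for Nrp1. Each holds 4 matches of GGAA on either strand, letters that 93.4% of 32851 promoters of the same length hold. The longer AGGAAG, which contains GGAA, was found 2 times before Flt1, 1 time before Nrp1 and 0 times before Kdr, on either strand, and 29.5% of promoters hold it. GGGCGG, the GC box, occurred 2 times before Kdr, 3 times before Flt1 and 1 time before Nrp1, against 32.7% of promoters with a match. TATAAA was found before Flt1, 31 bases from its start, and before neither of the others, and 12.4% of promoters hold it. The hypoxia factor core ACGTG, in 16.6% of promoters, matched in none of the 3. Their GC content was 61.6% for Kdr, 70.4% for Flt1 and 64.4% for Nrp1, where the median of all promoters was 52.4%.

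On the gene annotation GENCODE M21 (GRCm38), Vegfa lies at chr17:46016993-46032369 (minus strand), Vegfb at chr19:6982473-6987651 (minus) and Pgf at chr12:85166635-85177790 (minus). The receptors lie at chr5:75932827-75978458 (minus) for Kdr and chr5:147561604-147726011 (minus) for Flt1. Nrp1 lies at chr8:128358604-128503363 (plus), Nrp2 at chr1:62703285-62818695 (plus) and Esm1 at chr13:113209659-113218098 (plus). Among the receptors whose promoters are printed above, Nrp1 and Kdr have a start that differs from that of RefSeq. The Nrp1 stretch printed above lies inside the gene as placed here, and the Kdr stretch overlaps the first bases of Kdr. In the deposited table they are ENSMUSG00000023951 (Vegfa), ENSMUSG00000024962 (Vegfb), ENSMUSG00000004791 (Pgf), ENSMUSG00000062960 (Kdr), ENSMUSG00000029648 (Flt1), ENSMUSG00000025810 (Nrp1), ENSMUSG00000025969 (Nrp2) and ENSMUSG00000042379 (Esm1). All 8 are protein coding, and 0 of them overlap an exon of a gene on the other strand.

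Per kilobase of exon, Vegfa, Kdr, Nrp1 and Flt1 formed an upper group and Esm1, Vegfb, Pgf and Nrp2 a lower one. The highest level was that of Vegfa, at 2890 ± 192 normalised counts per kilobase in HF and 2324 ± 417.5 in LF (SD, n = 4 each), above 97.7% to 98.9% of the genes tested, depending on the library. Kdr followed at 2111 ± 161 per kilobase in HF and 2125 ± 472 in LF. Vegfa exceeded Kdr in 7 of the 8 libraries, LF 3 being the exception, so these neighbours were not separated in every library.

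Nrp1 was at 1787 ± 96.8 normalised counts per kilobase in HF and 1624 ± 347 in LF, below Kdr and above Flt1 in 8 of 8 libraries. Flt1 was at 848 ± 45.6 per kilobase in HF and 793 ± 87.3 in LF, so by this measure Kdr and Nrp1 had higher levels than the high-affinity receptor. Lengths join the exons of all annotated isoforms, 13504 bases for Flt1, 9030 for Kdr and 9785 for Nrp1. A gene whose joined length exceeds that of its expressed forms is placed too low, and lengths of single isoforms were not compared. Esm1 was at 247 ± 62.7 per kilobase in HF and 221 ± 65.9 in LF, and it was above Vegfb in 8 of 8 libraries. Vegfb, Pgf and Nrp2 did not keep an order. Vegfb was at 67.5 ± 13.6 per kilobase in HF and 47.3 ± 21.4 in LF. Pgf was at 31.7 ± 12.5 in HF and 49.1 ± 13.04 in LF, below Vegfb in 5 of 8 libraries. Nrp2 was at 31.0 ± 6.52 in HF and 40.4 ± 15.1 in LF, below Pgf in 5 of 8 libraries.

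**Figure D2:**
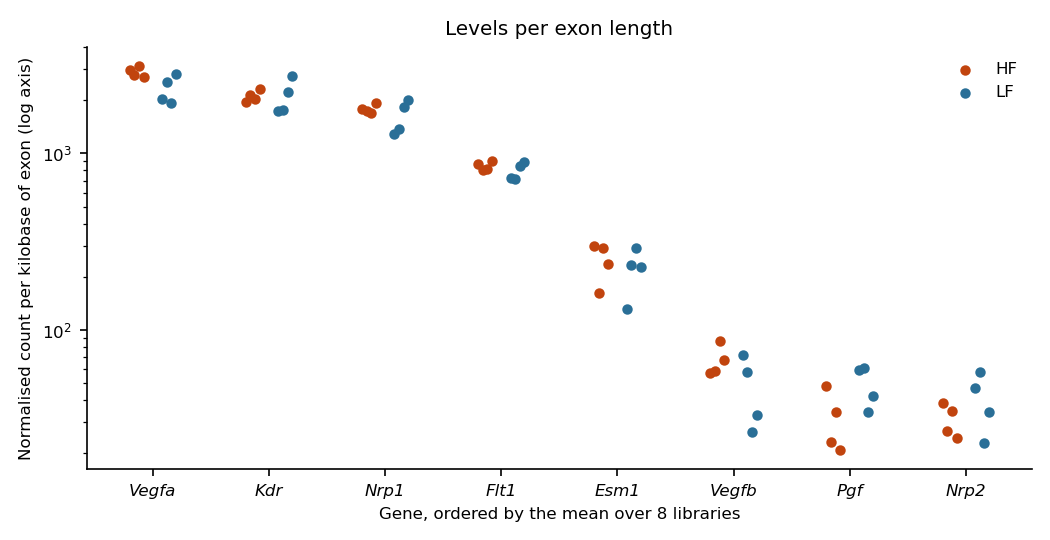
Normalised counts per kilobase of exon (vertical log axis) of the 8 genes in order of their mean over 8 libraries, 1 point a library, HF in orange and LF in blue. Vegfa, Kdr, Nrp1 and Flt1 lie above 700 per kilobase in all libraries, and Vegfb, Pgf and Nrp2 below 90 with overlapping points.

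Ratios within a library do not depend on how the libraries were scaled to each other. Of 12 ratios, 1 separated the groups without overlap, that of Kdr to the mean of Pecam1 and Cdh5. On the log2 scale it was -0.11, 0.02, -0.05 and 0.09 in HF 1 to HF 4, against 0.18, 0.22, 0.11 and 0.25 in LF 1 to LF 4. Each HF value was below each LF value, although HF 4 and LF 3 were close. The mean was -0.01 ± 0.09 in HF and 0.19 ± 0.06 in LF (SD, n = 4 each), a ratio 0.869 times as high in HF. Most of this difference lies in the denominator. The log2 fold change was 0.19 for Pecam1 and 0.24 for Cdh5, against 0.01 for Kdr and a median of 0.02 over all genes tested. How many other genes separate the groups relative to Pecam1 and Cdh5 was not counted, so the ratio is not shown to be particular to Kdr. The two-sided exact permutation p was 0.0286, the smallest that 4 against 4 can give, and 0.343 after adjustment over the 12 ratios. Leaving out LF 1 and LF 2 gave a difference of -0.19, and leaving out LF 3 and LF 4 one of -0.21. Nrp1 and Flt1 relative to the same 2 genes differed by -0.05 (exact permutation p = 0.2) and -0.11 (exact permutation p = 0.286), with overlapping groups.

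Pgf relative to Vegfa, the balance between a ligand of Flt1 and the ligand shared by both receptors, had a log2 ratio of -6.50, -7.43, -7.06 and -7.55 in HF 1 to HF 4. In LF 1 to LF 4 it was -5.66, -5.94, -6.36 and -6.61. All but 1 HF library lay below all LF libraries, HF 1 being above LF 4. The ratio was 0.501 times as high in HF, with an exact permutation p of 0.0571 and 0.343 after adjustment over the 12 ratios. Its log2 difference was -0.65 when LF 1 and LF 2 were left out and -1.34 when LF 3 and LF 4 were. The other 8 ratios, of Kdr to Flt1, Nrp1 to Nrp2, Vegfa to Vegfb and the remaining members to Pecam1 and Cdh5, had exact permutation p-values from 0.114 to 0.886.

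**Figure D3:**
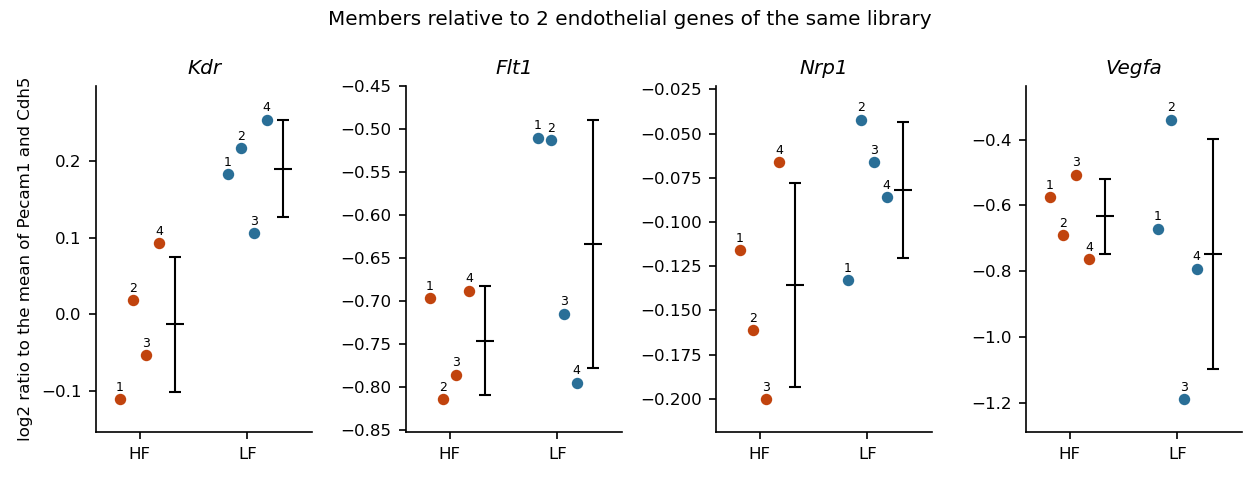
The log2 ratio of Kdr, Flt1, Nrp1 and Vegfa to the mean of Pecam1 and Cdh5 in the same library (vertical axes, own range each), 1 point a library with its replicate number, HF in orange and LF in blue, bars for mean ± SD (n = 4). For Kdr the HF points end at 0.09 and the LF points begin at 0.11, and the groups overlap in the other panels.

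The fold changes of the receptors turned on which LF libraries were the comparator. Without LF 1 and LF 2, limma called 1 of the 8 genes, Vegfb, at 2.23-fold (1.52 to 3.28) at an adjusted p of 0.0259, where 3.09% of all genes were called higher in HF and 0.662% lower. Kdr, Flt1, Nrp1 and Esm1 then had negative log2 fold changes of -0.23, -0.03, -0.10 and -0.09, and Nrp2 a positive one of 0.12. Without LF 3 and LF 4, limma called 4 of the 8, where 14.0% of all genes were called higher in HF and 6.02% lower. Nrp1 was called higher at 1.34-fold (1.16 to 1.55) at an adjusted p of 0.0134, and Vegfa at 1.27-fold (1.07 to 1.502) at an adjusted p of 0.0493. Pgf was called lower at 0.502-fold (0.313 to 0.805) at an adjusted p of 0.0443, and Nrp2 at 0.588-fold (0.441 to 0.782) at an adjusted p of 0.0190. The log2 fold change of Vegfa was 0.33 with all 8 libraries, 0.32 when LF 1 and LF 2 were left out and 0.34 when LF 3 and LF 4 were, but it ran from 0.24 without LF 3 to 0.43 without LF 4 when single libraries were left out, and was 0.24 with quantile normalisation. Pgf was lower in HF in all 3, at -0.67, -0.34 and -0.99. Fits without a pair set 4 HF against 2 LF libraries. The pairs were chosen from the first principal component of these same values, so the 2 LF libraries left are alike by choice. Their spread is thereby understated. The p-values and calls of these fits show how results depend on the LF libraries and are not tests of HF against LF.

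**Figure D4:**
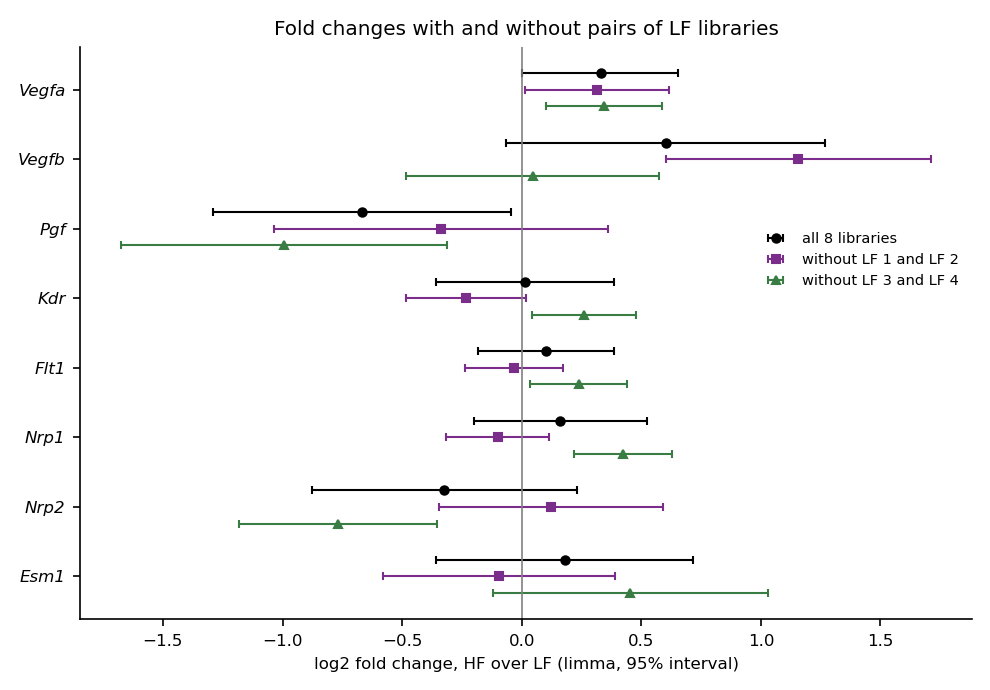
Log2 fold change of HF over LF (horizontal axis) of the 8 genes from limma with 95% intervals, with all 8 libraries (black circles), without the pair LF 1 and LF 2 (purple squares) and without the pair LF 3 and LF 4 (green triangles). Vegfa stays near 0.33 in the 3 fits, while Vegfb moves between 0.05 and 1.16 and Nrp2 between -0.77 and 0.12.

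Markers of other lung cells moved with the groups, and their part in these results was not tested. The summed normalised counts of 10 alveolar type 1 genes were 22532 to 26129 in HF, against 26158 to 36906 in LF, and 0 of the 10 had the higher mean in HF. Each of the 10 overlapped between the groups when taken alone. By mean, Clic5 was the largest part of this sum, at 10551 ± 910 in HF and 10876 ± 2271 in LF. Hopx was next, at 5966 ± 377 in HF and 7204 ± 1784 in LF. Without Clic5 and Hopx, the sums of the groups overlap. Ager, a defining gene of alveolar type 1 cells, was at 4920, 3110, 5415 and 2659 in HF 1 to HF 4, against 6022, 9679, 3481 and 4569 in LF 1 to LF 4. Vegfa, also a transcript of alveolar type 1 cells, had the higher mean in HF, and how far such cells contributed to it was not tested. Within HF, Vegfa and Ager ranked the libraries in the same order, and within LF they did not. Sums of smooth muscle and pericyte genes were 7347 to 9174 in HF, against 9416 to 13292 in LF. Postn was the largest part by mean, at 3105 ± 506 in HF and 3857 ± 594 in LF, with overlap. Gucy1a1 was next, at 2619 ± 162 in HF and 3642 ± 594 in LF, without overlap. Acta2 and Myh11 overlapped when taken alone, and 1 of the 10 genes, Tagln, had the higher mean in HF. Sums of airway epithelial genes were 4040 to 6171 in HF, against 7039 to 9591 in LF. Macrophage and monocyte sums were 792 to 1722 in HF, against 1796 to 2772 in LF. Their largest part by mean, Chil3, overlapped when taken alone, at 521 ± 298 in HF and 1080 ± 381 in LF. Mesothelial sums of 7 genes were 263 to 510 in HF, against 549 to 857 in LF. Krt19 was the largest part by mean, at 247.6 ± 52.1 in HF and 467.5 ± 135 in LF, without overlap. Upk1b was next, at 122 ± 56.2 in HF and 188.5 ± 30.9 in LF, with overlap. Msln, at 9.02 in HF and 12.75 in LF, also overlapped. Wt1, Upk3b, Lrrn4 and Muc16 were below the filter, Lrrn4 with the higher mean in HF. The remaining lists of alveolar type 2, fibroblast, other leukocyte and erythrocyte genes overlapped between the groups. No listed marker in the table was at 0 in every library, and 0 passed limma's adjusted threshold.

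The sort held endothelial cells by their markers, with pan-endothelial genes summing to 162305 to 183396 in HF, against 115811 to 195057 in LF. General capillary genes summed to 189722 to 227421 in HF, against 147378 to 185073 in LF, with 10 of 10 at the higher mean in HF. Of the pan-endothelial genes, 9 of 10 had the higher mean in HF too. Taken alone, Plvap and Sema3c of the general capillary genes did not overlap, and the others did. Plvap was at 24092 ± 4087 in HF and 14850 ± 3232 in LF. Arterial genes summed to 26774 to 31953 in HF, against 21419 to 25034 in LF. Of these, Gja5, Sox17 and Efnb2 did not overlap when taken alone. Mgp had the lower mean in HF, at 1197.5 ± 216.5, against 1662 ± 247 in LF. Dkk2 was below the filter. Aerocyte genes, which belong to the cells known for high Kdr, summed to 50848 to 68566 in HF, against 46810 to 77806 in LF. Of these, Car4 was at 11615, 14395, 13608 and 15660 in HF 1 to HF 4, against 9455, 8540, 18580 and 17671 in LF 1 to LF 4. Like Kdr, it was lower in LF 1 and LF 2 than in LF 3 and LF 4. Not all aerocyte genes were, as Tbx2 was at 1573, 1118, 894 and 1012 in LF 1 to LF 4. The pattern was also not particular to aerocyte genes, as Pecam1 was at 19425, 19737, 29129 and 33236 in LF 1 to LF 4. Venous and lymphatic sums overlapped between the groups. Whether the mix of capillary cells set the Kdr values was not tested.

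The genes most like each of Kdr, Flt1 and Esm1 over the 8 libraries were taken among 9885 genes with a mean of at least 100 normalised counts. For Kdr they were Gsdmd at a root mean square difference of 0.03, Arhgef3 at 0.05, and Nhlrc2, Grina and Rgs12 at 0.06, where the median over genes was 0.23. For Flt1 they were Zfp780b, Dlst, Samm50, Pde9a and Stx5a, all at 0.04, with a median over genes of 0.20. Esm1 had no gene as close, with Acsf3 at 0.16, Depp1 at 0.20, Atp13a3, Kyat1 and Prag1 at 0.21 to 0.22, and a median of 0.41. All 15 had an HF and an LF group that overlapped, which follows largely from their likeness to genes whose groups overlap. Among all genes tested, groups did not overlap for 5.43%.

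Other genes of the pathway were described from 6 lists, and none of their genes passed the adjusted threshold of limma or edgeR. DESeq2, which called 1.33% of all genes higher in HF and 0.504% lower, called 4 genes of the signalling list, 3 induced transcripts, 1 semaphorin and 1 upstream factor, all higher. Of all genes tested, 53.2% had the higher log2 mean in HF and the median log2 fold change was 0.02. Genes of signal transduction below Kdr had the higher mean in HF for 35 of 40 tested, with a median of 0.21. That list includes Pdk1 (log2 fold change -0.03), which encodes a pyruvate dehydrogenase kinase and not the kinase that activates AKT. Among the 24 receptor partners and regulators it was 17, with a median of 0.13, and among 26 transcripts induced by VEGF in endothelial cells 18, with a median of 0.18. Transcription factors upstream of the pathway had 13 of 16 and a median of 0.12, class 3 semaphorins 4 of 7 and a median of 0.13, and the lymphangiogenic arm 2 of 4 and a median of -0.08. The medians moved with the LF libraries used. When LF 1 and LF 2 were left out, the median log2 fold change was 0.17 for signal transduction, 0.01 for receptor partners, 0.04 for induced transcripts, -0.02 for upstream factors, 0.11 for semaphorins and 0.13 for the lymphangiogenic arm, against -0.03 for all genes. When LF 3 and LF 4 were, it was 0.21, 0.20, 0.11, 0.25, 0.25 and -0.24 in the same order, against 0.03 for all genes. Flt1 and Esm1 also stand in the list of induced transcripts. The genes named below were taken from those with the 3 smallest unadjusted p-values of limma in each list. Groups that do not overlap follow in part from that choice, and 5.43% of all genes tested had such groups.

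**Figure D5:**
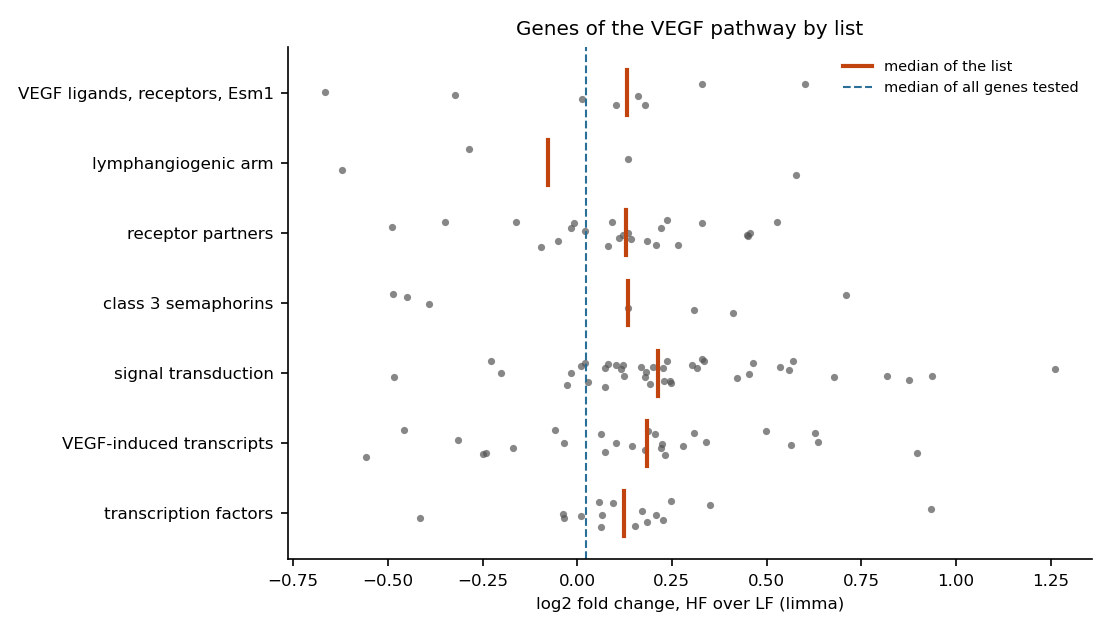
Log2 fold change of HF over LF (horizontal axis) for each tested gene of the 8 members and 6 pathway lists (rows), 1 point a gene with vertical jitter, the red bar marking the list's median and the dashed line the median of all genes tested at 0.02. Most points of the signal transduction row, 35 of 40, lie to the right of 0.

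In the signalling list, Rac1, a GTPase of lamellipodia and junctions, averaged 7426 ± 2903 normalised counts in HF against 3050 ± 1154 in LF (SD, n = 4 each), 2.40-fold (1.52 to 3.79) at an adjusted p of 0.164 by limma, and its groups overlapped. Fyn, a Src family kinase, averaged 2198 ± 373 in HF against 1277 ± 392 in LF, 1.76-fold (1.29 to 2.41) at an adjusted p of 0.176. DESeq2 called both higher, at adjusted p-values of 0.00708 for Rac1 and 0.0393 for Fyn. Limma called both when LF 1 and LF 2 were left out, at 0.00868 and 0.00327, and neither when LF 3 and LF 4 were, at 0.0684 and 0.0567. Of the 40 genes of the list, 8 were called higher in the first of these fits and 9 in the second, beside 3.09% and 14.0% of all genes. Daglb overlaps Rac1 on the other strand, and no source used here says whether reads were counted by strand.

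Of the induced transcripts, Plat, which encodes tissue plasminogen activator, was at 11271, 10238, 9632 and 10074 normalised counts in HF 1 to HF 4, against 3683, 4715, 6676 and 8012 in LF 1 to LF 4. All HF values were above all LF values. Its fold was 1.86 (1.36 to 2.55), and limma's adjusted p was 0.163. Hlx, a homeobox factor, averaged 1165 ± 184 in HF against 749 ± 113 in LF, a log2 fold change of 0.64 (0.31 to 0.96) at an adjusted p of 0.164. Dusp1, a phosphatase of MAP kinases, averaged 31881 ± 1605 in HF against 21702 ± 3205 in LF, 1.48-fold (1.17 to 1.88) at an adjusted p of 0.209. These 3 have the smallest p of their list. Each was called higher when either LF pair was left out, with adjusted p-values from 0.000690 to 0.0311, and by DESeq2. Of the 26 genes of the list, 3 were called higher when LF 1 and LF 2 were left out, and 4 when LF 3 and LF 4 were, beside 3.09% and 14.0% of all genes. Ergic1 overlaps Dusp1 on the other strand.

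Among receptor partners, Ptprj, a receptor phosphatase that acts on Kdr, averaged 271 ± 26.7 normalised counts in HF against 188 ± 23.3 in LF, 1.44-fold (1.14 to 1.82) at an adjusted p of 0.230 by limma. Ephb4, an Eph receptor of veins, averaged 6725 ± 786 in HF against 4907 ± 688 in LF, 1.37-fold (1.11 to 1.69) at an adjusted p of 0.243. Efnb2, its ligand, which promotes endocytosis of Kdr and is also in the arterial list, averaged 6249 ± 1248 in HF against 4510 ± 314 in LF, where LF 4 was the lowest at 4042, 1.37-fold (1.09 to 1.71) at an adjusted p of 0.289. Ephb4 was called higher without LF 3 and LF 4, and Ptprj and Efnb2 in neither fit. Of the 24 genes of the list, 4 were called higher without LF 3 and LF 4, where 14.0% of all genes were. Without LF 1 and LF 2 it was 0 of the 24, where 3.09% of all genes were. Zan overlaps Ephb4 on the other strand.

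The neuropilin ligands included Sema3f, the ligand of Nrp2, at 4204 ± 1017 normalised counts in HF and 2528 ± 331 in LF, or 1.64-fold (1.27 to 2.12) at an adjusted p of 0.164 by limma, with no overlap of the groups. Sema3c, which is also in the general capillary list, averaged 31854 ± 3375 in HF against 23933 ± 2453 in LF, 1.33-fold (1.05 to 1.68) at an adjusted p of 0.355, with no overlap. Sema3g averaged 5273 ± 375 in HF against 4304 ± 807 in LF, 1.239-fold (0.998 to 1.54) at an adjusted p of 0.455. Leaving out LF 3 and LF 4 made these 3 of the 7 semaphorins called higher and 1 other called lower, beside 14.0% and 6.02% of all genes, and leaving out LF 1 and LF 2 made 0 of the 7 called. DESeq2 called Sema3f, at an adjusted p of 0.0110.

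In the lymphangiogenic arm, Vegfc, the ligand of the receptor encoded by Flt4, was at 1618, 1985, 1805 and 1872 normalised counts in HF 1 to HF 4, against 908, 1096, 1459 and 1506 in LF 1 to LF 4. All HF values were above all LF values. Its fold was 1.49 (1.17 to 1.90), and limma's adjusted p was 0.210, and it is also in the venous list. Its log2 fold change was 0.29 when LF 1 and LF 2 were left out (limma adjusted p = 0.233) and 0.86 when LF 3 and LF 4 were (limma adjusted p = 0.00314). In the second of these fits 1 of the 4 tested genes of the list was called higher, beside 14.0% of all genes. Ccbe1, which aids the processing of VEGF-C, averaged 32.5 ± 6.85 in HF against 50.7 ± 10.3 in LF, 0.650-fold (0.433 to 0.975) at an adjusted p of 0.421. Flt4 itself averaged 1892 ± 102 in HF against 1731 ± 198 in LF, 1.10-fold (0.921 to 1.31) at an adjusted p of 0.673. Gm15958 overlaps Ccbe1 on the other strand.

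Of the upstream transcription factors, Sox17, a factor of arterial endothelium that is also in the arterial list, averaged 4318 ± 787 normalised counts in HF against 2363 ± 895 in LF, 1.91-fold (1.33 to 2.74) at an adjusted p of 0.181 by limma. Erg, an ETS factor of endothelial identity that is also in the pan-endothelial list, was at 746, 600, 708 and 771 in HF 1 to HF 4, against 1044, 1034, 850 and 845 in LF 1 to LF 4. All HF values of Erg were below all LF values. Its fold was 0.750 (0.616 to 0.912) with an adjusted p of 0.261. Foxo1, a forkhead factor restrained by AKT, averaged 1899 ± 471 in HF against 1494 ± 395 in LF, 1.27-fold (0.924 to 1.76) at an adjusted p of 0.565. Sox17 was called higher without LF 1 and LF 2 (adjusted p = 0.00233) and Erg lower without LF 3 and LF 4 (adjusted p = 0.0134). When LF 1 and LF 2 were left out, 3.09% of all genes were called higher, and 1 of these 16 factors. When LF 3 and LF 4 were left out, 14.0% of all genes were called higher and 6.02% lower, and 4 of these 16 factors higher and 1 lower. DESeq2 called Sox17, at an adjusted p of 0.0439. Foxo1 had a log2 fold change of 0.68 when LF 1 and LF 2 were left out (adjusted p = 0.0850) and of 0.02 when LF 3 and LF 4 were (adjusted p = 0.958). Gm37587 overlaps Sox17 and Gm20402 overlaps Foxo1 on the other strand.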

How the data were processed

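RNA of lung endothelial cells was sequenced from 4 HF and 4 LF samples, after SMART-Seq library preparation, per the labels' protocols, which amplifies full-length cDNA. STAR 2.6.1b, featureCounts 2.0.0 and DESeq2 1.24.0 are named in the submitters' processing notes. Genome build, annotation and strand setting: not given in the sources used here. For each gene and library the authors deposited a signal, the normalised count, made by dividing read counts by a size factor (0.820 to 1.27) and not scaled for gene length. The authors' log2 fold change (HF over LF), standard error, Wald score, p-value and adjusted p-value stand beside it, per the file headers. Multiplying back gave whole reads, within 0.01, for 100% of values above 0. Without molecular identifiers, amplified reads are not independent molecules, and library totals limit the precision of low genes. No label says that each library came from a separate animal, so p-values measure the spread between these samples.

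Genes that reached 10 normalised counts in 4 or more libraries were fitted with limma 3.58.1 in R 4.3.3 on log2(normalised count + 1), using its moderated test with the trend option, two-sided, Benjamini-Hochberg adjusted over 17067 genes, threshold 0.05. Folds on this scale understate changes of low genes. EdgeR 4.0.16 with TMM and DESeq2 1.42.0 were run on the recovered reads. Ratios were compared by exact permutation with scipy 1.17.1. GENCODE M21 gave positions and exon lengths for all 34899 gene IDs, and 24 symbols turned into dates were restored. Columns of per-sample values that matched no sample numbered 0. Between libraries of a group, chi-square per degree of freedom was 9.96 to 50.7, so all 8 were counted. The 8 genes, the gene lists and the LF pairs left out were chosen with earlier results of these data known. Named genes were the 8 members, the 3 of each pathway list with the smallest unadjusted p (1 of them is not reported here), 5 genes nearest in profile to Kdr, Flt1 and Esm1, and Pecam1, Cdh5 and Ptprc. Of the pathway genes, Adamts3, Prkcb, Sh2d2a, Shc2 and Etv2 were below the filter, and 1 listed marker, Calb2, had no row.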

Additional observations from a re-analysis of the deposited data

Results flagged for a closer look

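Of 106 groups of 4 libraries examined, covering the members, named genes and ratios, 1 held a library far from the others. For Efnb2, the ligand of Ephb4, LF 4 had 4041.7 normalised counts, against 4677, 4630 and 4694 in LF 1 to LF 3, a gap of 0.901 of the group's range, above Dixon's 95% critical value. Chance gives such a value in about 1 group in 20, or 5.3 here.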

How the results depend on the processing

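Of 152 alternative log2 fold changes of the 8 genes, 134 kept their direction and side of the threshold, 5 passed it and 13 changed sign. Genes called numbered 0 with all 8 libraries, 1 with no filter on low values, 0 to 1 with each library left out (1 without LF 2 or LF 4), 641 when LF 1 and LF 2 were left out, 3421 when LF 3 and LF 4 were, 0 with edgeR and 313 with DESeq2. Members called higher numbered 1 when LF 1 and LF 2 were left out and 2 when LF 3 and LF 4 were, and members called lower 2 in the second case. These differences come with 2 fewer LF libraries, and the 2 left were alike by choice, as the pairs were taken from the same values. Spread within LF is thereby understated in these fits, so their calls are not tests of HF against LF. How far this raised the counts was not tested. Kdr, at 0.01, turned to -0.13 with quantile normalisation, -0.0051 with TMM scaling, -0.0234 with edgeR, -0.0277 with DESeq2 and -0.23 without LF 1 and LF 2, and ranged from -0.0731 to 0.14 with each library left out, negative without HF 4, LF 1 or LF 2. Without LF 1 and LF 2, Flt1 turned to -0.0327, Nrp1 to -0.10, Nrp2 to 0.12 and Esm1 to -0.0943, and Esm1 ranged from -0.0511 (without LF 1) to 0.37 with each library left out. Of 156 alternative ratios, 145 were unchanged in sign and call and 11 changed sign. Without LF 3 and LF 4, the differences of log2 ratios turned to 0.0225 for Kdr to Flt1, 0.30 for Vegfa to Vegfb, and, relative to Pecam1 and Cdh5, -0.13 for Vegfa and -0.43 for Vegfb. Without LF 1 and LF 2 they turned to -0.22 for Nrp1 to Nrp2 and, relative to Pecam1 and Cdh5, 0.0088 for Flt1 and 0.16 for Nrp2. With each library left out, Vegfa relative to these genes ranged from -0.0329 (without LF 3) to 0.25, and Esm1 from -0.18 to 0.15, positive without HF 2, LF 2 or LF 3. Of 133 alternative medians of the gene lists, 10 moved by more than the spread between libraries: to -0.0635 for the 8 members, 0.13 for the lymphangiogenic arm, 0.0109 for receptor partners, 0.0361 for induced transcripts and -0.0214 for upstream factors without LF 1 and LF 2, to 0.25 for upstream factors without LF 3 and LF 4 and 0.0420 without LF 1, to 0.0272 for receptor partners and 0.0124 for upstream factors with quantile normalisation, and to 0.13 for the lymphangiogenic arm with a mean of at least 50. Over all alternatives, adjusted p-values ran from 0.0493 to 0.767 for Vegfa, 0.0259 to 0.910 for Vegfb, 0.0443 to 0.817 for Pgf, 0.0134 to 0.992 for Nrp1 and 0.0190 to 0.932 for Nrp2. Same-numbered HF and LF libraries deviated from their group means with correlations of 0.11, -0.22, -0.14 and 0.18. Each HF library had 1 sign with LF 1 and LF 2 and the opposite sign with LF 3 and LF 4. The correlations thus follow the LF pairs and cannot settle whether the numbers pair the samples. The fit with the replicate number as a block called 0 genes, while 1810 had an unadjusted p below 0.05, and the paired exact permutation of the ratios cannot go below 0.125.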

Other observations

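Transcripts that VEGF-A is known to raise within hours in cultured endothelium had higher means in HF for some and lower means for others, and none passed limma's adjusted threshold. These were chosen from the list of induced transcripts after their values were seen. Egr1, an immediate early factor, was at 36006 ± 1610 normalised counts in HF and 30962 ± 3319 in LF (SD, n = 4 each), and its relative Egr3 at 128 ± 41.0 in HF and 172 ± 28.7 in LF. Of the orphan nuclear receptors, Nr4a1 was at 3839 ± 916 in HF and 3411 ± 1222 in LF, Nr4a2 at 371 ± 79.1 in HF and 309 ± 87.2 in LF, and Nr4a3 at 65.8 ± 21.2 in HF and 94.8 ± 16.4 in LF. Rcan1, an inhibitor of calcineurin, was at 4508 ± 670 in HF and 3603 ± 800 in LF.

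Genes of sprouting tip cells did not pass the threshold either, and their intervals included no change. Dll4, the Notch ligand of tip cells, was at 4165 ± 572 normalised counts in HF and 3668 ± 557 in LF, with log2 fold change 0.19 (-0.13 to 0.50). Apln, a tip cell and aerocyte peptide, was at 1269 ± 229 in HF and 1322 ± 232 in LF, with log2 fold change -0.06 (-0.40 to 0.29). Angpt2, a ligand of the Tie2 receptor, was at 1106 ± 140 in HF and 1242 ± 134 in LF, with log2 fold change -0.17 (-0.45 to 0.11).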
